A study of Mus musculus with 6 samples.

Results

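The genes described here are the 4 Spalt-like transcription factor genes Sall1, Sall2, Sall3 and Sall4, the RNA-binding protein genes Lin28a and Lin28b, and the pluripotency markers Pou5f1, Nanog, Zfp42 and Dppa5a. They were picked by symbol, and all 10 are among the 23284 genes of the deposited table. RNA-seq was performed on heart ventricles of mouse embryos at embryonic day 9.5 (E9.5), with 3 WT embryos and 3 KD embryos. All 6 were tetraploid chimeras made from ES cells of strain C57BL/6 in the labels and C57BL/6 J in the methods, in which the tetraploid host contributes mainly to the extraembryonic tissues. KD embryos carried the genotype Tbx5ua -/-, in which tandem polyadenylation signals in the second exon of both alleles cut short the lncRNA Tbx5ua, transcribed divergently from the cardiac transcription factor gene Tbx5. WT embryos came from wild type ES cells. The level of Tbx5ua was not analysed here, so the targeted gene gives no check of the group labels. The paper reports by qRT-PCR that Tbx5ua was strongly reduced in KD chimeras at E9.5, a measure not taken from these libraries. The KD cells are clonal lines that went through CRISPR/Cas9 editing and removal of the selection cassettes by Cre, so clone and genotype cannot be told apart, and which clone gave the sequenced embryos is not stated in the sources used here.

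Each gene has 1 value per group, in FPKM, the number of mapped fragments scaled to transcript length and library size, which allows different genes to be set side by side. The values of single embryos and the read depth are unknown, so no spread between embryos can be given and no test could be computed. The authors' own test results were not used, and all differences are descriptions of the 2 group values. A difference is log2 of (KD + 0.1 FPKM) over (WT + 0.1 FPKM), which understates the difference of genes with low values. A gene is called measured when it has at least 1 FPKM in either group, which 11606 genes had. The median difference over these genes was 0.00 and the central 95% of them lay between -0.65 and 0.79.

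SALL proteins are zinc finger factors that bind AT-rich DNA and recruit the NuRD histone deacetylase complex. SALL4 holds ES cells in the pluripotent state with OCT4 and NANOG, and in humans mutations of SALL1 and SALL4 cause syndromes with limb and heart defects, as mutations of TBX5 do. LIN28 proteins bind precursors of the miRNA let-7 and block their maturation, while mature let-7 represses the LIN28 mRNAs, so that each side of the loop holds down the other. Lin28 is high in the early embryo and declines as tissues differentiate.

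In WT ventricles the members formed 3 tiers. Sall4 was the highest at 13.5 FPKM, above 79.1% of the listed genes, followed by Lin28a at 8.71, Sall1 at 5.96 and Lin28b at 5.28 FPKM. Sall2 at 2.35, Nanog at 1.60 and Sall3 at 1.30 FPKM made up a lower tier. Pou5f1 at 0.131, Dppa5a at 0.112 and Zfp42 at 0.0458 FPKM were at the bottom, and each stayed below 1 FPKM in both groups. In KD ventricles the order was Sall4, Sall1, Lin28b, Lin28a, Sall2, Nanog, Sall3 and Pou5f1, with Dppa5a and Zfp42 listed at 0. Among the first 8 genes the orders differ only in Lin28a, which stood above Sall1 and Lin28b in WT and below both in KD. Without values of single embryos it is not known which neighbours in these orders differ beyond their spread.

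**Figure D1:**
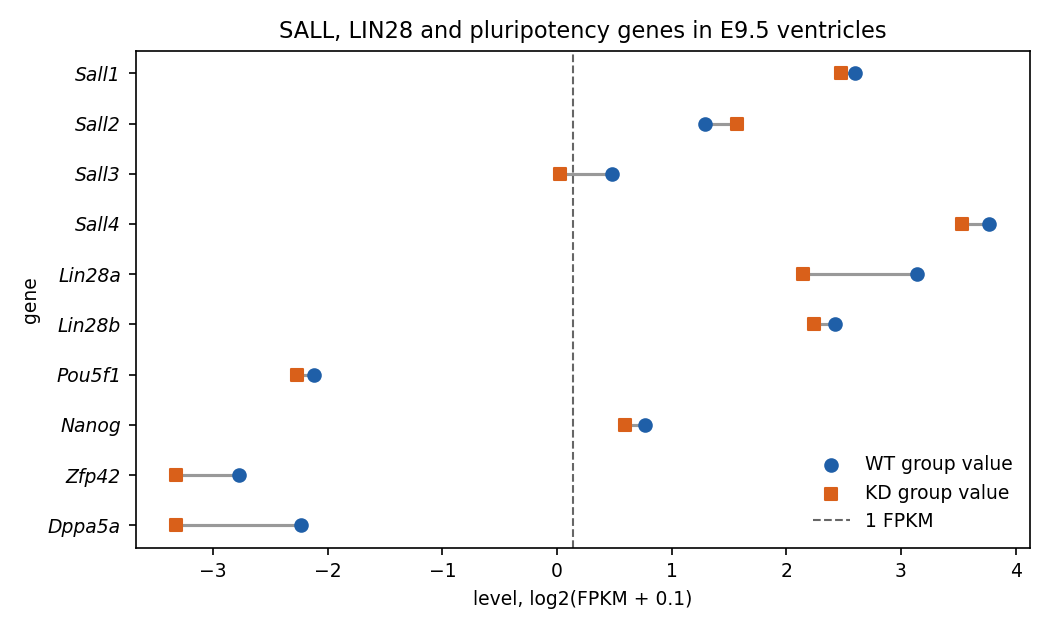
Levels of the 10 genes on the scale of log2(FPKM + 0.1), with the WT group value as a circle, the KD group value as a square and a dashed line at 1 FPKM; there are no error bars because the table holds 1 value per group. Lin28a has the longest connecting line among the 7 genes that reach 1 FPKM, Sall2 is the one gene with the square to the right of the circle, and Pou5f1, Zfp42 and Dppa5a lie left of the dashed line in both groups.

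Lin28a was the member with the most distant group values among the 7 that were measured. It was 2.02-fold lower in KD ventricles without the pseudocount, and 6 of the 7 measured members were lower in KD by any amount (85.7%), against 49.1% of all measured genes. Sall3 is among the 6 and reached 1 FPKM only in WT, so the filter set its direction, while the other 6 measured members reached it in both groups. At least 1.5-fold lower was 1 of the 7, Lin28a, where 3.10% of all 11606 measured genes were that much lower. At least 1.5-fold higher were 0 of the 7, where 4.48% of all measured genes were that much higher. The median difference of the 7 was -0.19 against 0.00 for all measured genes. In bulk tissue, fewer cells of a type and less RNA per cell cannot be told apart.

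**Figure D2:**
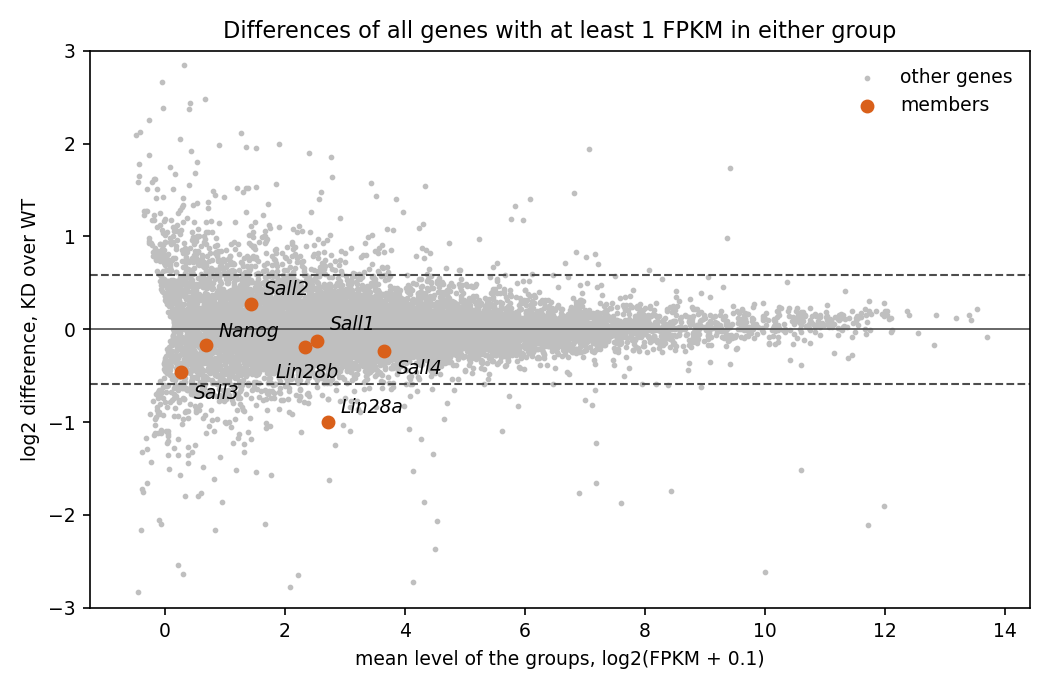
Difference of KD over WT (log2, vertical axis) against the mean level of both groups (log2 of FPKM + 0.1, horizontal axis) for measured genes, with members in orange and dashed lines at 1.5-fold; 65 genes lie beyond the plotted limit of 3 in either direction. Of the 7 members only Lin28a is outside the dashed lines, in a range of levels where most genes lie close to 0.

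Lin28a, on chromosome 4 of mouse build GRCm38 (mm10) at chr4:134003330-134018816 on the minus strand, spans 4 exons in GENCODE M21. It had 8.71 in WT and 4.32 FPKM in KD, so that KD ventricles held 49.6% of the WT level. The difference was -0.996 with the pseudocount. Among 3887 genes within 2-fold of its mean level, 15 (0.386%) were at least as much lower, and the central 95% of these genes ran from -0.52 to 0.67. Among all measured genes 123 were further down. These shares describe where the gene lies among others and say nothing of the spread between embryos.

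Lin28b, the paralogue of Lin28a, lies at chr10:45376619-45470201 on the minus strand and has 5 exons. It had 5.28 in WT and 4.62 FPKM in KD, a difference of -0.19. Of 3737 genes of like level 892 (23.9%) were at least as much lower, so that the difference of Lin28b was a common one, unlike that of Lin28a. The ratio of Lin28a to Lin28b was 1.65 in WT and 0.935 in KD, so that the paralogue with the higher level was not the same in the 2 groups. The summed level of both was 14.0 in WT and 8.94 FPKM in KD, and Lin28a held 62.2% of it in WT and 48.3% in KD.

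let-7 finds its targets through its seed, bases 2 to 8 of the mature miRNA. The mature sequences from RefSeq (GRCm38.p6) of the let-7 family, 9 miRNAs with miR-98 among them, share 1 seed, and miR-125a and miR-125b, which are known to target Lin28a as well, share another. The following 4 mature miRNAs show the shared seed in capitals and the bases in which family members differ after it, and 1 more gives the miR-125 seed. let-7a-5p from Mirlet7a-1 lies at chr13:48538239-48538260 on the minus strand, let-7b-5p at chr15:85707325-85707346 on the plus strand, let-7d-5p at chr13:48536078-48536099 on the minus strand, let-7g-5p at chr9:106178846-106178867 on the plus strand and miR-125b-5p from Mir125b-1 at chr9:41581940-41581961 on the plus strand.
mmu-let-7a-5p: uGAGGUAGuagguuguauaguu
mmu-let-7b-5p: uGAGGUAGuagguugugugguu
mmu-let-7d-5p: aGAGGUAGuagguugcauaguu
mmu-let-7g-5p: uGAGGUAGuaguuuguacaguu
mmu-miR-125b-5p: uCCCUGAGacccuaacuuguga

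Both LIN28 genes hold the letters that pair with these seeds in their 3′ UTRs, in the GENCODE M21 annotation of GRCm38. Lin28a has 2 matches to the let-7 seed and 1 to the miR-125 seed in 2775 bases of 3′ UTR. Lin28b has 4 and 1 in 4445 bases. The sites are printed 5′ to 3′ on the mRNA strand, which is the minus strand of the genome, as the DNA letters of the genome with the 7 bases that pair with the seed in capitals. The Lin28a matches to let-7 are at chr4:134005189-134005218 and chr4:134004551-134004580, and its match to miR-125 is at chr4:134005301-134005330. All 3 are followed by an A, the base that lies opposite the first base of the miRNA.
Lin28a let-7 match 1: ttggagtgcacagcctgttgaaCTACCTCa
Lin28a let-7 match 2: atgctttgagatcgccacaaacCTACCTCa
Lin28a miR-125 match: tgttctcaggtacatgagcaatCTCAGGGa

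In Lin28b the let-7 matches are at chr10:45381022-45381051, chr10:45378648-45378677, chr10:45378476-45378505 and chr10:45377060-45377089, the first of them starting at base 36 of the 3′ UTR. Its miR-125 match is at chr10:45378798-45378827. Of the 4 let-7 matches only the first is followed by an A. Lin28b had more let-7 matches and the smaller difference, while Lin28a had more let-7 matches followed by an A. Any relation of the matches to the differences was not tested.
Lin28b let-7 match 1: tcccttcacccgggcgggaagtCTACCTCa
Lin28b let-7 match 2: acgtacatatacttgttagtaaCTACCTCt
Lin28b let-7 match 3: aaattctgtttacagcacatggCTACCTCc
Lin28b let-7 match 4: agcttggaaatgatggcaccgaCTACCTCt
Lin28b miR-125 match: atgctcaggacaaagaactttgCTCAGGGa

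Among the other members, Sall4 and Sall3 each hold 1 let-7 match, in 1697 and 3097 bases of 3′ UTR. The remaining 6 members hold neither match. A let-7 match is thus present in 4 of 10 members and a miR-125 match in 2, while over 20921 coding genes 8.80% hold a let-7 match and 13.0% a miR-125 match. Over the 10045 of these genes that were measured the shares were 10.3% and 15.2%. Longer 3′ UTRs hold more matches of any kind, and the UTRs of Lin28a and Lin28b are longer than the median of 1142 bases in measured genes. A match of 7 letters is a description of the sequence and not a site shown to be used.

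The 9012 measured genes with no let-7 match had a median difference of 0.00, and 2.27% of them were at least 1.5-fold lower and 4.14% that much higher. Of the 1033 genes with at least 1 match the median was -0.01, with 2.42% that much lower and 2.71% higher. The 128 genes with 2 or more matches, the class Lin28a and Lin28b belong to, had a median of -0.02, with 2.34% lower and 1.56% higher. The share of genes lower was thus alike in the classes, while the share higher was smaller with more matches, a difference that was not tested. Only a few of the 128 genes make up either share of that class. For the 1527 genes with a miR-125 match the median was -0.00, with 2.62% lower and 3.21% higher. The genes without one had 2.23% and 4.13%. The 257 genes with at least 2 miR-125 matches had 2.72% lower and 2.33% higher. The share higher was thus smaller with more miR-125 matches as well, which was not tested either. The classes of both seeds were not matched for the length of the 3′ UTR or the level of the genes.

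**Figure D3:**
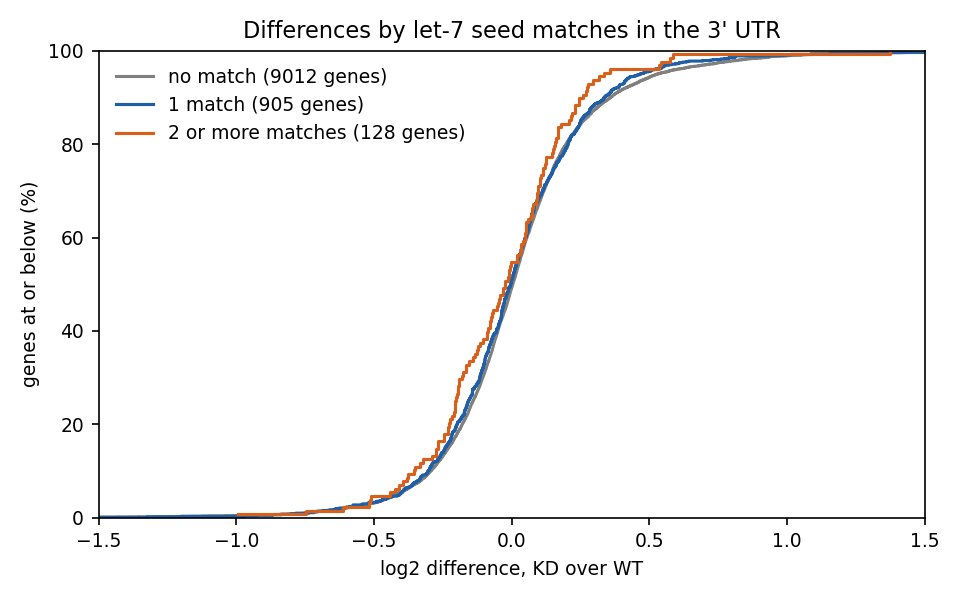
Cumulative percentage of measured genes (vertical axis) by the difference of KD over WT (log2, horizontal axis), for genes with no let-7 seed match in the 3′ UTR (9012 genes), 1 match (905) and 2 or more (128). The medians are 0.00, -0.00 and -0.02, and Lin28a at -0.996 is in the far left tail of its class.

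The enzymes of the let-7 pathway were close in the groups. These are the terminal uridylyltransferases that LIN28A recruits, the exonuclease Dis3l2 that degrades the tailed precursors, and the miRNA processing machinery. Of 11 such genes 10 are in the table and all 10 were measured, 6 of them higher and 4 lower in KD, with none 1.5-fold apart and a median of 0.10. Ddx5, an RNA helicase of the Drosha complex and the highest of the list, had 277 in WT and 275 FPKM in KD.

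Known let-7 targets, genes that let-7 represses in embryonic and tumour cells, gave a median of -0.04. Of 20 genes 19 were measured, 7 of them higher and 12 lower in KD. The highest, Ccnd2, a cyclin that drives the G1 phase, had 237 in WT and 212 FPKM in KD. The list was not chosen by seed matches, and Ccnd2 holds no let-7 match in the 3′ UTR searched. Only Nr6a1, an orphan nuclear receptor gene that is known to silence Pou5f1, was at least 1.5-fold apart, with 2.38 in WT and 1.38 FPKM in KD. Nr6a1 and Ccnd2 here, and Ddx5, Rbbp7, Dnd1, Sox2, Sox1 and Shh among the other genes named, share their locus in the table with another gene, so their values are less certain.

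The promoter of Lin28a is shown as the 250 bases before its RefSeq start, chr4:134018817-134019066 on the minus strand of GRCm38.p6, since this gene differed the most among the 7 measured members. Over a window of 300 bases, 250 before and 50 after the start, it has a GC content of 63.3% and 10 CpG dinucleotides, against medians of 52.7% and 7 over all promoters of the RefSeq table. Capitals mark CATTGT, the core of the motif bound by SOX factors, 96 bases before the start.
Lin28a promoter: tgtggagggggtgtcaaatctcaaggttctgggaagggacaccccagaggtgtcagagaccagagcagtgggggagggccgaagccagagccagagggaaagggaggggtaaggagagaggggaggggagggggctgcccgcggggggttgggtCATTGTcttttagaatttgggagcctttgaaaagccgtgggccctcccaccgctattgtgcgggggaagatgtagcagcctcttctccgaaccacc

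The letters searched on both strands were TTTGCAT, from the octamer motif of OCT4, CATTGT for SOX factors, and AGGTGTGA for T-box factors such as TBX5. The octamer letters are in 4.63% of the 32851 promoters of that table, the SOX letters in 12.6% and the T-box letters in 1.28%. Promoters of 7 members were searched, with 12 start sites in all, while Sall3, Sall4 and Dppa5a were not searched. No window of these 7 members holds the T-box letters, which says only that these letters are absent there. The octamer letters are in the Nanog windows and in that of Zfp42, chr8:43306960-43307259 on the minus strand, 185 bases before the start. The SOX letters are also in a Pou5f1 window at the second start.

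In Nanog both letters stand side by side, 1 base apart, as in the composite site that OCT4 and SOX2 share in ES cells. It is shown in the 250 bases before the first RefSeq start, chr6:122707239-122707488 on the plus strand of GRCm38.p6. The octamer letters begin 75 bases before that start and the SOX letters, in reverse complement as ACAATG, begin 67 bases before it.
Nanog promoter: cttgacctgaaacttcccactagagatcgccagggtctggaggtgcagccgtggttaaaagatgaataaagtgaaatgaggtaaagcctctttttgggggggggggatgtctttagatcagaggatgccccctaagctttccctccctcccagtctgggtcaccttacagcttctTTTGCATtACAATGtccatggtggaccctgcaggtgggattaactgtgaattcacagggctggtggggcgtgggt

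Sall4, at chr2:168748332-168767201 on the minus strand with 4 exons, had 13.5 in WT and 11.5 FPKM in KD. The difference was -0.24, with KD at 84.8% of WT. Among 3777 genes of like level 525 (13.9%) were at least as much lower. Sall4, the family member of ES cells and early embryos, was the highest of the 10 genes in both groups.

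Sall1, at chr8:89027243-89044162 on the minus strand, is the family member known from kidney and limb development. It had 5.96 in WT and 5.47 FPKM in KD, a difference of -0.12 that 31.3% of 3832 genes of like level matched or passed on the lower side. Its 3 RefSeq starts lie in promoters that are rich in CpG, with 18 to 39 CpG dinucleotides per window.

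Sall2, at chr14:52311177-52328670 on the minus strand, is the most divergent vertebrate family member and is linked to cell cycle arrest and eye development. It was the only measured member with the higher value in KD, 2.87 FPKM against 2.35 FPKM in WT. The difference was 0.28, and 740 of 3286 genes of like level (22.5%) were at least as much higher.

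Sall3, at chr18:80966374-80986578 on the minus strand, is known from cranial nerve and limb development and was the lowest of the family. It had 1.30 in WT and 0.919 FPKM in KD, which is 70.9% of WT and a difference of -0.45. That made it the measured member with the second largest difference. At so low a level such differences were common, since 14.6% of 1825 genes of like level were at least as much lower and their central 95% ran from -1.12 to 1.28.

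Summed over the family, SALL transcripts came to 23.1 in WT and 20.7 FPKM in KD. Sall4 made up 58.5% of these transcripts in WT and 55.4% in KD, and Sall1 25.7% and 26.4%. The ratio of Sall4 to Sall1 was 2.27 in WT and 2.10 in KD. All 14 genes of the NuRD complex that SALL factors recruit were measured, 6 higher and 8 lower in KD with a median of -0.03 and none 1.5-fold apart. Rbbp7, its histone-binding subunit and the highest, had 336 in WT and 329 FPKM in KD.

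Nanog, a homeobox factor of the pluripotent epiblast at chr6:122707568-122713778 on the plus strand, had 1.60 in WT and 1.41 FPKM in KD. The difference of -0.17 was matched or passed by 29.9% of 2515 genes of like level on the lower side. Pou5f1, which encodes OCT4, at chr17:35506032-35510777 on the plus strand, had 0.131 in WT and 0.108 FPKM in KD. Nanog thus had 84.7% of the summed level of the 4 pluripotency markers in WT, 1.89 FPKM, and 92.9% of the sum in KD, 1.52 FPKM.

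Zfp42, which encodes the ES cell zinc finger protein REX1, at chr8:43295067-43307009 on the minus strand, had 0.0458 FPKM in WT and was listed at 0 in KD. Dppa5a, an RNA-binding protein gene of ES cells at chr9:78367054-78368199 on the minus strand, had 0.112 FPKM in WT and was listed at 0 in KD. A value of 0 can be a failed estimate in such a table, and no fold is given against it. Processed or duplicated copies named after the gene are annotated for 3 of the markers, Nanog-ps1 and Nanog-ps2, Zfp42-ps1, and Dppa5b and Dppa5c. The values of these 3 genes are uncertain, because reads of a near-identical copy could be assigned to either. Copies of members under other names were not searched for.

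Of 20 other genes of the pluripotency network 4 were measured. Tdgf1, a NODAL co-receptor that is also active in the early heart, had 2.19 in WT and 0.720 FPKM in KD, a difference of -1.48. Klf4 had 1.27 in WT and 0.800 FPKM in KD, a difference of -0.61. Klf2, a gene of endothelium as well as ES cells and the highest of the list, had 9.98 in WT and 8.91 FPKM in KD. Sox2, Prdm14, Dppa2, Utf1 and Tcl1 were listed at 0 in both groups. Tdgf1 and Klf4 reached 1 FPKM only in WT, where they were the higher, so the filter set their direction. Klf2 and Tbx3, which reached it in both groups, had differences of -0.16 and -0.18 (Tbx3 was named after its value was seen).

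Genes of primed pluripotency and gastrulation were mostly below 1 FPKM, with 2 of 10 measured. Fgf5, a growth factor of the primed epiblast, had 0.431 in WT and 1.14 FPKM in KD, and since it reached 1 FPKM only in KD the filter set its direction. Dnmt3b, the de novo DNA methyltransferase and the highest of the list, had 5.41 in WT and 3.77 FPKM in KD. Of 8 germ cell genes 2 were measured and none was 1.5-fold apart. Dnd1, an RNA-binding protein gene and the highest of them in WT, had 4.49 in WT and 3.22 FPKM in KD.

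Of 12 genes of the second heart field, the progenitor pool of the right ventricle and outflow tract, 7 were measured, with a median of -0.00. Foxh1, a SMAD partner in NODAL signalling, had 20.2 in WT and 11.3 FPKM in KD, a difference of -0.83. Fgf8, a growth factor of that field, had 2.45 in WT and 1.41 FPKM in KD, a difference of -0.75. Mef2c, the highest in WT, had 23.3 in WT and 23.2 FPKM in KD. The other 4 measured genes of this list were less than 1.5-fold apart.

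**Figure D4:**
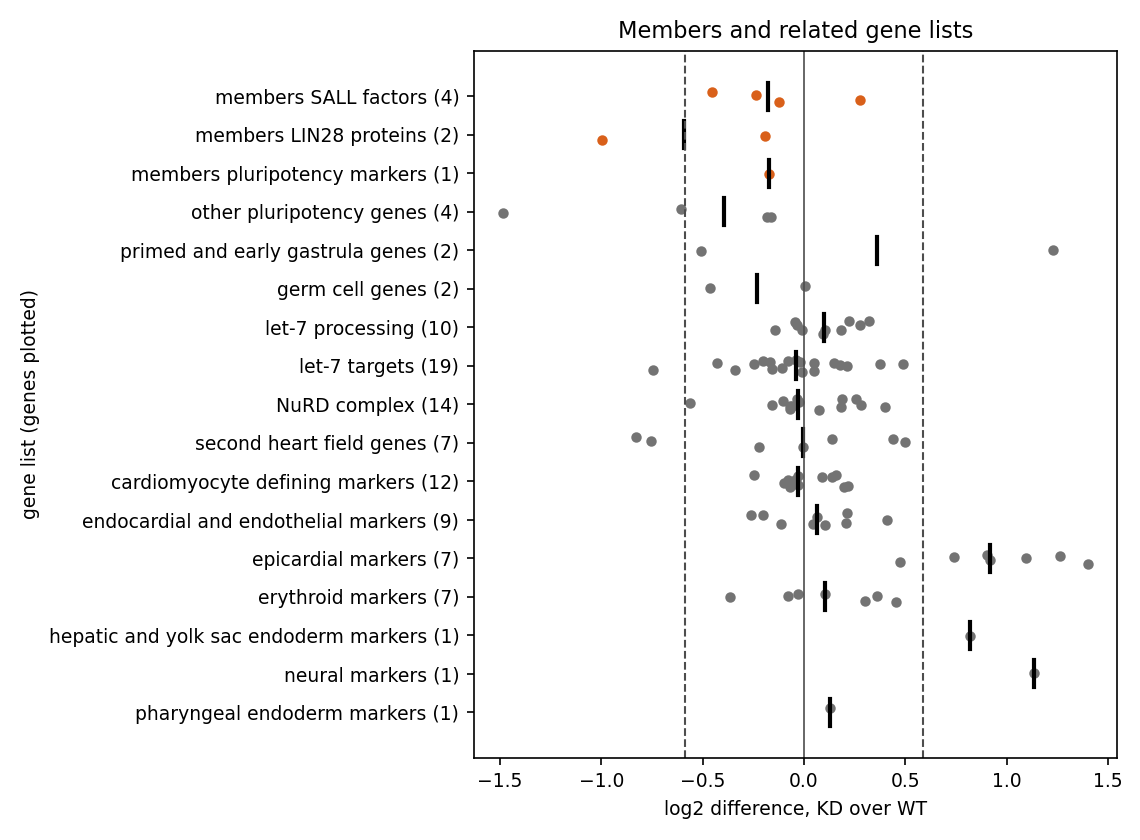
Difference of KD over WT (log2, horizontal axis) of each measured gene in the lists of members (orange) and the other lists (grey), with a bar at each list's median, the number of genes plotted in brackets and dashed lines at 1.5-fold. All 7 epicardial points lie right of 0 and 6 of them at or beyond the dashed line, with 2 of the 6 (Aldh1a2 and Gpm6a) measured only through KD, while the let-7 processing, NuRD and cardiomyocyte points lie between the dashed lines.

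The tissue was checked against marker lists. All 12 cardiomyocyte markers were measured, 5 higher and 7 lower in KD with none 1.5-fold apart, and summed to 43210 in WT and 44802 FPKM in KD, led by Myl7. The summed endocardial markers had 183 and 198 FPKM and the erythroid markers 11451 and 11529 FPKM. All 7 epicardial markers were higher in KD, 6 of them at least 1.5-fold, with sums of 47.6 in WT and 97.0 FPKM in KD. Aldh1a2 and Gpm6a, both among the 6, reached 1 FPKM only in KD, so the filter set their direction (Gpm6a was named after its value was seen). Markers of tissues near the heart were mostly below 1 FPKM. Of 8 hepatic and yolk sac markers 1 was measured (sums 1.95 and 3.46 FPKM, with Alb, Fgb and Hnf4a at 0), of 9 neural markers 1 (Tubb3, 12.2 and 26.9 FPKM, with Sox1, Neurog1, Neurog2 and Olig2 at 0) and of 9 pharyngeal endoderm markers 1 (Hhex, 6.86 and 7.50 FPKM, with Foxa1, Pax9 and Shh at 0). The part of these cell types in the member differences was not tested.

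As Tbx5ua is an lncRNA divergent from its coding neighbour, genes that start near a member on the opposite strand were looked up in GENCODE M21. Within 3000 bases of the start on the opposite strand lie Gm13061 for Lin28a, at 694 bases, Gm14261 for Sall4, at 1800 bases, and Gm27239 for Sall3, at 685 bases. Whether these 3 noncoding loci run away from the member or overlap it was not checked, and their levels were not analysed here. The paper reports a bidirectional lncRNA for Sall4, with an expression trend opposite to that of Sall4 over development. Whether that lncRNA is the same locus as Gm14261 was not checked. Smart-Seq2 libraries do not keep the strand, so reads of a gene and of an overlapping transcript on the opposite strand cannot be told apart. No member shares its locus in the table with another gene.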

How the data were processed

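RNA-seq libraries of ventricles from 3 WT and 3 KD embryos were prepared with Smart-Seq2, which amplifies full-length cDNA by PCR, and sequenced from 1 end. The authors deposited 1 Cuffdiff table of FPKM, which gives a gene 1 value over all WT embryos and 1 over all KD embryos (named KO). TopHat, Bowtie2, Cuffdiff and build mm10 are named in the submitters' processing notes, without versions. How reads of repeated sequence were assigned is not given in the sources used here. The table also holds the authors' own fold changes, test statistics, p-values and q-values, which were not used. Samples were grouped by title and genotype. 0 columns of single samples were left unused. Depth is unknown, so no interval is given.

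Differences were computed as log2 of the ratio after adding 0.1 FPKM to both values, over genes with at least 1 FPKM in either group, and counted at 1.5-fold. Of the 23284 genes 5899 were at 0 in both groups, and 2 more, Actc1 and Rn45s, had a placeholder in place of a value and were left out. FPKM summed to 859452 in WT and 877889 in KD. The scripts were tested on simulated data. Genes of like level were those within 2-fold of a member's mean level. The table counts start positions from 0, so 1 was added. Seed matches were searched in the 3′ UTR of 1 GENCODE M21 transcript per gene. miRNAs and promoters were taken from RefSeq tables on GRCm38.p6, and promoters of 7 of the 10 members were searched. Promoters on chromosome 18, where Sall3 lies, were left out of the search of members. The members and the 15 other gene lists were chosen with earlier results of these data known. The result of 1 of these lists is not reported here. Named genes were all members and, of each other list, up to 4 measured genes at least 1.5-fold apart with the largest differences and the gene highest in WT. Of most marker lists only counts and sums are given. Alternatives were pseudocounts, filters, scalings and fold limits. Python 3.11.15, NumPy 2.4.6, pandas 2.3.3 and Matplotlib 3.10.9 were used.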

Additional observations from a re-analysis of the deposited data

Results flagged for a closer look

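The entries of 2 let-7 genes, which count among all measured genes above but belong to no list described there, were above 0 in KD only. Mirlet7d, at chr13:48536012-48536114, had 24.3 FPKM in KD and was listed at 0 in WT. Mirlet7f-1, at chr13:48537829-48537917 in the same cluster, had 25.3 FPKM in KD and was listed at 0 in WT. The other 10 entries of let-7 and miR-98 genes were listed at 0 in both groups. Of these 10, Mir98, Mirlet7f-2 and Mirlet7g share their locus in the table with another gene. Their entries span 132136, 132136 and 20778 bases, so their values of 0 are less certain. These libraries do not capture mature miRNAs. Mirlet7d and Mirlet7f-1 span 103 and 89 bases, so a few fragments give a high FPKM. Among the 253 genes of at most 120 bases, 238 were at 0 in both groups, 4 were above 0 in KD only, 6 in WT only and 5 in both, and the lowest value above 0 was 6.90 FPKM. The levels of mature let-7 were not analysed here.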

How the results depend on the processing

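The number of measured members at least 1.5-fold lower in KD, 1 (Lin28a), was 2 with no filter on low values, where Dppa5a joined it, 0 at a limit of 2-fold and 2 at a limit of 25% apart, where Sall3 joined it. It was 1 with a pseudocount of 1 FPKM, without a pseudocount, with at least 1 FPKM in both groups, with at least 5 FPKM in either group and after rescaling by the median or the upper quartile. The number at least 1.5-fold higher was 0 under each of these. The median difference of the members ran from -0.21 to -0.16, and that of Lin28a from -1.01 to -0.87. Of 38 recomputed member values 32 moved by less than 0.1, and no member changed sign. The other 6, of Sall3, Lin28a, Pou5f1, Zfp42 and Dppa5a, moved with the pseudocount. Among all genes, 360 were lower and 520 higher at 1.5-fold, 170 and 255 with a pseudocount of 1, 202 and 302 with at least 1 FPKM in both groups, 112 and 166 with at least 5 FPKM in either group, 1182 and 1632 with no filter, 123 and 166 at 2-fold and 1084 and 1409 at 25% apart. No paired analysis was possible because single embryos have no values of their own, and for the same reason no embryo could be left out. With unknown depth, values below 1 FPKM limit what can be said of Pou5f1, Zfp42 and Dppa5a.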
